A study of Mus musculus with 8 samples.

Results

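The genes described are those of the cytochrome P450 and conjugation enzymes in AML12 cells, a line of mouse hepatocytes kept in culture. They were selected on their symbol and their level: P450 families 1 to 4, glutathione S-transferases (GST), UDP-glucuronosyltransferases of families 1 and 2 (UGT), sulfotransferases (SULT), the P450 reductase Por and the epoxide hydrolase Ephx1, each with a mean TPM of at least 1 over all 8 samples. TPM is a level corrected for the length of the gene, on a scale whose total is the same in each sample, so levels can be compared between genes. Of 55401 genes in the tables, 146 had such a symbol after 39 pseudogene symbols were set aside, and 43 of them reached the limit. The mean that chose the members takes both conditions together, so the levels below are a description, and only the differences between conditions were tested. Just inside the limit were Cyp4b1 with a mean of 1.01 TPM and Cyp2c65 with 1.17 TPM, and just outside it were Cyp2c67 with 0.89 TPM and Ugt1a1 with 0.719 TPM.

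Poly(A) RNA was sequenced from 4 control samples and 4 samples cultured for 1 h under Opti-ELF-WMF, pulses of a weak magnetic field with a peak of 100 mG, a width of 4 ms and a frequency stepping up from 1 to 8 Hz. All 8 samples were AML12 cells, grown between copper plates in medium with serum, insulin, transferrin, selenite and dexamethasone. Dexamethasone is a glucocorticoid, which both groups therefore received. The paper states in general that control and exposed cells came from 1 batch of culture. It does not say whether the 4 RNA samples of a group shared that batch. The control cells stood in another incubator of the same model with the stimulator off, so that the field and the incubator cannot be told apart. The sources do not say that the samples of a group were independent experiments, so p-values measure the spread between these samples, which may be technical, and in bulk RNA fewer cells of a type and less RNA per cell cannot be told apart.

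Enzymes of this kind act on drugs, pollutants, steroids, fatty acids and bilirubin in consecutive steps. P450s in the membrane of the endoplasmic reticulum insert oxygen with electrons that Por takes from NADPH, and Ephx1 opens the reactive epoxides that can form. Conjugating enzymes then attach glutathione, glucuronic acid or sulfate, which makes the products soluble and ready for export. The liver is the main site of these reactions, and hepatocytes in culture are known to lose much of their P450 expression.

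The hepatocyte label was checked against marker genes. Of 17 hepatocyte markers, 7 had a mean of at least 1 TPM, among them Ttr at 353 TPM, Apob at 210 TPM, Hnf4a at 193 TPM and Alb, the gene of serum albumin, at 52.4 TPM. Cyp2e1 and Cyp7a1, both defining enzymes of mature hepatocytes, were listed at 0 in every sample, while the bile duct keratin gene Krt19 stood at 1161 TPM and the mesenchymal gene Vim at 1407 TPM. Of 5 bile duct markers 3 reached a mean of 1 TPM, while Epcam averaged 0.0475 TPM and Cftr 0.51 TPM. Of 7 mesenchymal markers only 1, Vim, reached it, and the next highest, Col1a1, averaged 0.631 TPM. None of 4 endothelial markers and 1 of 5 leukocyte markers reached 1 TPM. The summed hepatocyte markers ranged from 791 to 848 TPM in control and from 788 to 864 TPM in exposed samples. The summed bile duct markers ranged from 1204 to 1291 TPM and from 1219 to 1340 TPM, in the same order. The mesenchymal sum, nearly all of it Vim, ranged from 1306 to 1403 TPM and from 1382 to 1510 TPM. The part of any of these sums in the differences below was not tested. Transcripts of the mitochondrial genome took 8.94% ± 0.336 (SD, n = 4) of all TPM in control and 7.04% ± 0.764 (SD, n = 4) in exposed samples, without overlap, and since TPM has a fixed total, this difference bears on every other gene. The files keep no read depth, so the counting error of each value is unknown.

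Near-identical members could exchange reads, and their sequences are shown first for the pair on which a result turns. Gstp1 and Gstp2, the pi-class GSTs, lie next to each other on the reverse strand of chromosome 19 (Gstp1 at chr19:4035407-4037985 and Gstp2 at chr19:4040285-4046023, GRCm38, both protein coding). Their coding sequences, 633 bases each in GENCODE M21, differ at 12 bases and are 98.1% identical. The stretch of bases 1 to 120 holds 6 of these differences, given in capitals.

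Gstp1: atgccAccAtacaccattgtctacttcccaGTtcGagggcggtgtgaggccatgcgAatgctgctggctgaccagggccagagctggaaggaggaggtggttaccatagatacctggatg

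Gstp2: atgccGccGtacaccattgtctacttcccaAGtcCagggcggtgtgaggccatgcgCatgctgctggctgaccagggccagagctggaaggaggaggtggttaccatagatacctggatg

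Of the 150-base windows of Gstp1 transcripts, 17.6% also occur in another gene, namely Gstp2 or the pseudogene Gstp-ps. A single sequencing read of this length from such a window cannot be assigned to 1 of them by its letters. Reads were sequenced in pairs, which the windows do not take into account, so their shares are not shares of ambiguous pairs. Over all members, 30 shared no such window with another gene and 13 shared some, 6 of them at least 20% of their windows. Gsta1 shared 68.4% of its windows with Gsta2, Gm3776 and Gm10639, and Ugt1a6a and Ugt1a6b, which are 98.4% identical in their coding sequence, shared 49.1% and 65.4%. The UGT1A enzymes are made from a single locus at which each has a first exon of its own and all use the same last exons. In all, 24 of the 43 members lay in 8 chromosomal clusters of close relatives.

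Conjugating enzymes made up most of the members' transcripts, and P450s few. Of 22 GST genes 18 were members, against 12 of 82 P450, 6 of 19 UGT and 5 of 21 SULT genes. The 82 include Cyp4x1os, by its symbol an opposite-strand transcript of Cyp4x1 and not a P450, which was listed at 0 in every sample. GSTs took 75.6% of the members' summed TPM, P450s 4.12%, UGTs 5.35% and SULTs 3.02%. The members together held 0.240% of all TPM, and 5 of them stood at 100 TPM or more, 17 between 10 and 100 TPM and 21 below 10 TPM. Of the 146 genes, 53 were listed at 0 in every sample. Among these were all 8 listed Sult2a genes, which sulfate bile acids and steroids. Cyp3a11, the principal drug-oxidising P450 of mouse liver, averaged 0.005 TPM, Cyp1a2 0.00625 TPM and Cyp2b10, the usual target of the receptor CAR, 0.0275 TPM.

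**Figure D1:**
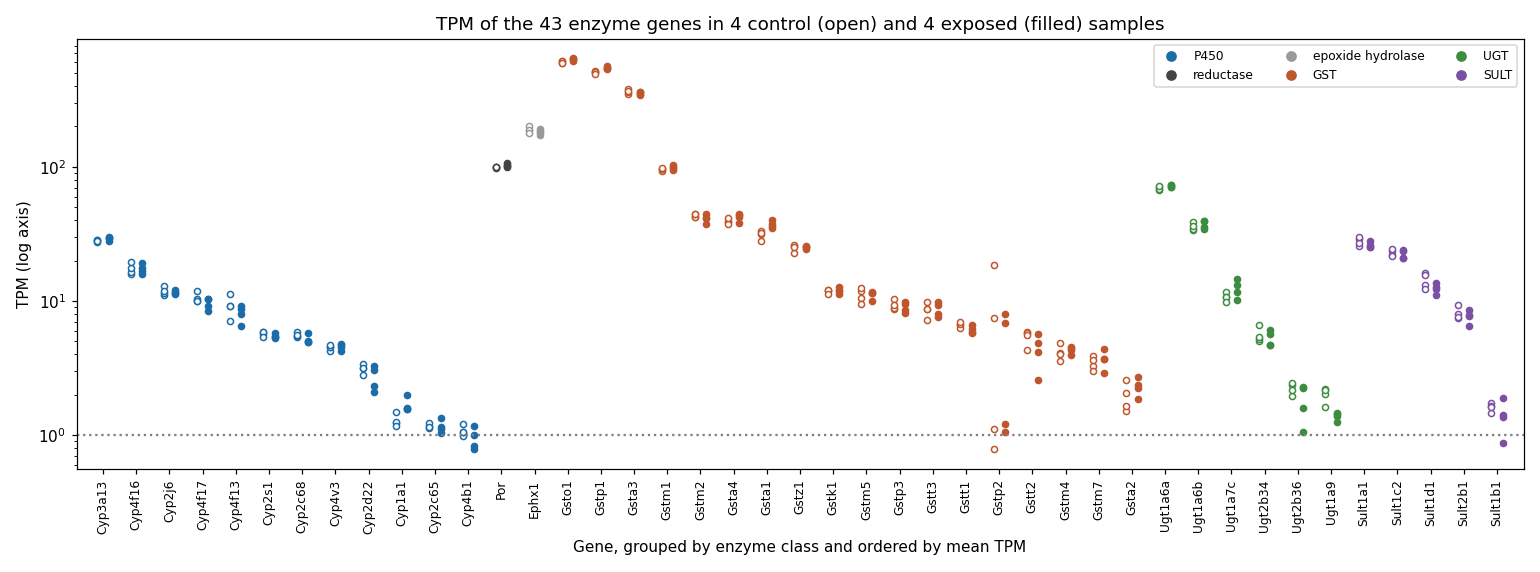
TPM on a log axis for each of the 43 genes, with 4 control samples as open and 4 exposed samples as filled circles, grouped by class and ordered by mean within a class; the dotted line is the limit of 1 TPM. Gsto1, Gstp1 and Gsta3 stand highest, and Gstp2 is the gene whose samples lie farthest apart within each condition.

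The comparison of conditions asked whether 1 h of Opti-ELF-WMF was accompanied by other levels of these genes. All 43 members were among the 12122 genes that 4 or more samples held at 1 TPM or above, which were fitted together with limma on log2(TPM + 1). The fold changes below are given as differences on that scale and come out too small for low genes. No member passed an adjusted p-value of 0.05 (limma, Benjamini-Hochberg over all genes fitted), and neither did any of the other genes (0.0% of 12122). The smallest adjusted p-value of a member was 0.122. At an unadjusted p-value under 0.05 there were 4 members higher in exposed samples, or 9.30%, against 12.0% of all genes, and 1 lower, or 2.33%, against 3.65%. The groups did not overlap for 4 members that were higher in exposed samples, again 9.30%, against 8.01% of all genes, and for 1 that was lower, against 1.86%. These shares were near those of all genes. Leaving out 1 sample at a time gave 2 to 5 members higher and 1 to 4 lower at the unadjusted threshold. Over all 12122 genes it gave 1066 to 1625 higher and 330 to 513 lower. Under median-of-ratios scaling, rescaling without the mitochondrial genes and upper-quartile scaling, the share of higher genes among all those with an unadjusted p-value under 0.05 went from 76.6% to 47.1%, 50.7% and 42.3%. The members then had 3, 2 and 2 higher and 4, 4 and 5 lower genes at that threshold, in the same order. Over all genes these counts were 673, 693 and 588 higher and 755, 675 and 801 lower, of 12122, 12107 and 12122.

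Gstp1, which conjugates glutathione to electrophiles and is among the most abundant cytosolic GSTs of mouse liver, had the smallest p-value of the members. Its TPM was 519.89, 506.11, 512.87 and 489.44 in control replicates 1 to 4 and 564.72, 548.98, 547.63 and 534.70 in exposed replicates 1 to 4. On the deposited scale the lowest exposed sample stood above the highest control sample. After upper-quartile scaling control replicate 1 and exposed replicate 4 were about level, with the control sample slightly higher. The means were 507 ± 13.0 (SD, n = 4) and 549 ± 12.3 (SD, n = 4), higher by 8.27%. The log2 fold change was 0.11 ± 0.026 (SE), with an unadjusted p of 0.00161 and an adjusted p of 0.122 by limma. Under the 3 other scalings it was 0.09, 0.08 and 0.08, with unadjusted p-values of 0.0244, 0.00755 and 0.0279 by limma.

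Gstp2 spread widely within both groups. Its TPM was 1.12, 7.42, 18.46 and 0.79 in control replicates 1 to 4 and 1.06, 6.88, 8.06 and 1.22 in exposed replicates 1 to 4. In each condition replicates 1 and 4 were low and replicates 2 and 3 high, and the groups overlapped fully. The residual SD of Gstp2 on the log2 scale was the largest of the 43 members and ranked 22 among the 12122 genes. Its difference of -0.23 had a 95% interval from -2.01 to 1.55, so that a change anywhere within it could not be told from none. The highest Gstp2 level was 18.46 TPM, beside 512.87 TPM of Gstp1 in the same sample, and whether reads were exchanged between the copies was not tested.

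With Gstp1, Gstp2 and Gstp-ps summed, the samples stood at 522.34, 514.61, 532.70 and 491.87 TPM in control and 567.08, 557.19, 557.61 and 537.01 TPM in exposed replicates 1 to 4. On the deposited scale the groups still did not overlap. After median-of-ratios or upper-quartile scaling they did, with control replicate 3 above exposed replicate 4. The summed log2 fold change was 0.11 ± 0.029 (SE) with an adjusted p of 0.150 by limma, in a fit added after the data were seen. Gstp3, the more distant copy at 72.7% identity to Gstp1, had means of 9.31 ± 0.745 (SD, n = 4) and 9.01 ± 0.790 (SD, n = 4) TPM, which overlapped.

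**Figure D2:**
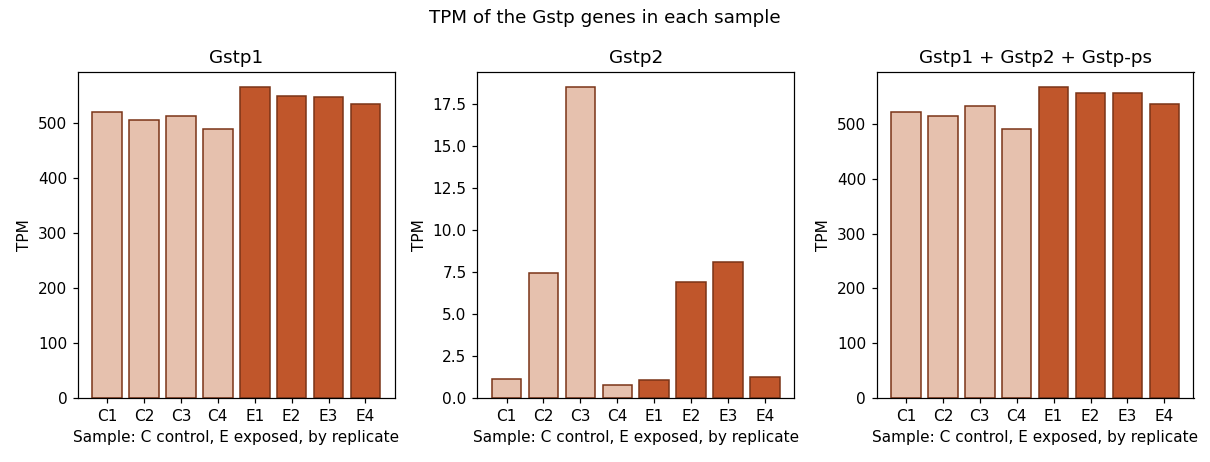
Bars give the TPM of Gstp1, of Gstp2 and of Gstp1, Gstp2 and Gstp-ps together in each of the 4 control (C) and 4 exposed (E) samples, all from 0. Gstp2 is high in replicates 2 and 3 of both conditions. On the deposited scale shown, Gstp1 and the sum are higher in each exposed sample than in any control sample.

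The sequence before the start of both genes is shown because the copies stood at very different levels. In the 250 bases before the start of transcription given by RefSeq on GRCm38.p6, both carry the letters TGAGTCA of an AP-1 site, a target of Fos and Jun proteins, in a stretch of 30 identical bases. The stretch lies at chr19:4037968-4037997 for Gstp1 and at chr19:4042292-4042321 for Gstp2, on the reverse strand, and the motif is in capitals. The RefSeq starts differ from those of the GENCODE spans given above. By those spans the stretch crosses the start of Gstp1 and lies inside Gstp2.

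Gstp1: ctccaacgtgtTGAGTCAgcatccggggcg

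Gstp2: ctccaacgtgtTGAGTCAgcatccggggcg

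TGAGTCA was found on either strand in 6 of the 38 members with such a sequence, or 15.8%, against 5.16% of the 27025 genes with one. The 6 were Gstp1, Gstp2, Gstm5, Cyp3a13, Cyp4f16 and Sult2b1, of which Gstp1 and Gstp2 are recent copies and not independent cases. GCGTG, the core that the aryl hydrocarbon receptor binds, was found in 13 of the 38, or 34.2%, against 30.9%, and TGACNNNGC, the core of the antioxidant response element, in 3, or 7.89%, against 11.5%. TGAGTCA read from the other strand begins with the letters TGAC and can overlap TGACNNNGC. A match is a description of letters and not of binding.

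Gsta1, an alpha-class GST that also reduces lipid hydroperoxides, was the second member by p-value. Its TPM was 33.48, 31.54, 27.96 and 32.30 in control replicates 1 to 4 and 36.25, 40.16, 37.66 and 35.31 in exposed replicates 1 to 4, without overlap. The means of 31.3 ± 2.38 and 37.3 ± 2.11 TPM (SD, n = 4 each) differed by 19.2%. The log2 fold change was 0.25 ± 0.060 (SE), with an unadjusted p of 0.00209 and an adjusted p of 0.128 by limma. It was 0.22 under each of the 3 other scalings. On average the near copies were also at higher TPM in exposed samples. They share windows with Gsta1, so their levels may not be independent of it. Gsta2 ranged from 1.53 to 2.60 TPM in control and from 1.85 to 2.71 TPM in exposed samples, which overlapped. Gm10639 ranged from 0.87 to 1.67 TPM and from 1.88 to 2.65 TPM, in the same order. Gm3776 stood at 11.31, 11.99, 10.11 and 12.55 TPM in control and 14.69, 12.48, 14.66 and 15.16 TPM in exposed replicates 1 to 4, where 1 exposed sample fell below the highest control sample. Gsta1, Gsta2, Gm3776 and Gm10639 summed to between 41.14 and 48.54 TPM in control and between 54.20 and 57.27 TPM in exposed samples, with a log2 fold change of 0.28 ± 0.052 (SE) and an adjusted p of 0.121 by limma, again in a fit added after the data were seen.

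On the deposited scale the other alpha-class genes had no unadjusted p under 0.05. Gsta3, the third most abundant member, stood at 379.90, 351.26, 359.62 and 365.03 TPM in control and 340.91, 362.53, 358.58 and 345.86 TPM in exposed replicates 1 to 4. The groups overlapped, with a log2 fold change of -0.05 ± 0.031 (SE) and an unadjusted p of 0.152 by limma. After the 3 other scalings its unadjusted p-values were 0.0249, 0.0254 and 0.0167, all toward lower levels. Gsta4, which removes the lipid peroxidation product hydroxynonenal, had means of 39.4 ± 1.80 and 42.2 ± 2.94 TPM (SD, n = 4 each), which overlapped. Summed over the 4 Gsta genes the log2 fold change was -0.01 ± 0.031 (SE).

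Gsto1 was the most abundant member, an omega-class enzyme that reduces disulfides and dehydroascorbate more than it conjugates. Its TPM was 619.01, 610.70, 592.93 and 592.65 in control replicates 1 to 4 and 633.37, 642.23, 633.23 and 612.66 in exposed replicates 1 to 4. Exposed replicate 4 fell below control replicate 1, so the groups overlapped. The log2 fold change was 0.06 ± 0.025 (SE), with an unadjusted p of 0.0306 and an adjusted p of 0.258 by limma. It was 0.03 under each of the 3 other scalings, with unadjusted p-values of 0.258, 0.163 and 0.316 by limma.

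On the deposited scale none of the mu, theta, zeta and kappa class GSTs had an unadjusted p under 0.05. Gstm1, the leading mu-class gene, had means of 96.2 ± 2.03 and 99.0 ± 3.53 TPM (SD, n = 4 each), and all 7 Gstm genes summed, 2 of them below the limit, had a log2 fold change of 0.01 ± 0.031 (SE). Gstt1 had means of 6.67 ± 0.263 and 6.13 ± 0.346 TPM (SD, n = 4 each), with an unadjusted p of 0.104 by limma, which was 0.0416 with median-of-ratios and 0.0353 with upper-quartile scaling. Gstt2 stood at 5.84, 5.78, 4.33 and 5.59 TPM in control and 4.86, 5.69, 2.59 and 4.19 TPM in exposed replicates 1 to 4, an overlap with a log2 fold change of -0.29 ± 0.175 (SE). Gstz1, which isomerises maleylacetoacetate in tyrosine breakdown, had means of 24.9 ± 1.36 and 25.1 ± 0.518 TPM (SD, n = 4 each). Of all 18 GSTs, 12 had a positive and 6 a negative difference, with a median of 0.02.

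Of the P450s, Cyp1a1 was the member with the smallest p-value. It oxidises polycyclic aromatic hydrocarbons and is the best known target of the aryl hydrocarbon receptor. It stood near the limit of the selection, at 1.48, 1.23, 1.26 and 1.18 TPM in control replicates 1 to 4 and 1.59, 1.56, 1.58 and 2.01 TPM in exposed replicates 1 to 4. The groups did not overlap, but the highest control and the lowest exposed sample were close, and exposed replicate 4 lay far above the other 3. The means were 1.29 ± 0.133 and 1.69 ± 0.217 TPM (SD, n = 4 each). The log2 fold change was 0.23 ± 0.095 (SE), with an unadjusted p of 0.037 and an adjusted p of 0.281 by limma. Under the 3 other scalings it was 0.21, 0.22 and 0.21, with unadjusted p-values of 0.0499, 0.0517 and 0.0513 by limma, and the unadjusted threshold was also missed without control replicate 2, 3 or 4 or exposed replicate 4. The other family 1 genes lay below the limit, Cyp1b1 with a mean of 0.675 TPM and a range of 0.57 to 0.74 TPM in control and 0.66 to 0.73 TPM in exposed samples. The 250 bases before the RefSeq start of Cyp1a1 are shown because they hold the receptor's core once, with GCGTG in capitals. They lie at chr9:57697363-57697612 on the forward strand (GRCm38.p6). By the GENCODE span of the gene, chr9:57687928-57703824 (GRCm38), these bases lie inside it and not before its start.

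Cyp1a1: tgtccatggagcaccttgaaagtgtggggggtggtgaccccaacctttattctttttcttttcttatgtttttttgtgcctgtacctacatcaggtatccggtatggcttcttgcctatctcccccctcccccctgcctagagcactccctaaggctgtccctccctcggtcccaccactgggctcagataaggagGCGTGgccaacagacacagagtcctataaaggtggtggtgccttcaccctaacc

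The receptor itself, Ahr, stood at 11.62, 11.88, 13.09 and 12.51 TPM in control and 10.43, 12.30, 10.74 and 11.82 TPM in exposed replicates 1 to 4. These values overlapped, with a log2 fold change of -0.11 ± 0.063 (SE) and an adjusted p of 0.447 by limma.

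In the main fit, on the deposited scale with all 8 samples, the other P450s gave no unadjusted p-value under 0.05. With 1 sample left out, Cyp4f13 was lower at that threshold without control replicate 2 and Cyp2d22 without exposed replicate 4. Cyp3a13, the CYP3A form with the highest level and the leading P450, stood at 28.72, 27.76, 28.29 and 27.85 TPM in control and 29.72, 29.93, 29.37 and 27.87 TPM in exposed replicates 1 to 4, so that exposed replicate 4 lay among the controls. Its log2 fold change was 0.05 ± 0.035 (SE). The Cyp4f genes encode enzymes that hydroxylate leukotrienes and fatty acids at the chain end. Cyp4f16 had means of 17.4 ± 1.71 and 17.4 ± 1.42 TPM and Cyp4f17 of 10.6 ± 0.900 and 9.55 ± 0.926 TPM (SD, n = 4 each), and both overlapped. Cyp2j6, of a subfamily that makes epoxides of arachidonic acid, had means of 11.9 ± 0.836 and 11.7 ± 0.327 TPM (SD, n = 4 each). Cyp4b1 and Cyp2c65, just inside the limit, had log2 fold changes of -0.09 ± 0.103 (SE) and -0.01 ± 0.089 (SE). Of the 12 P450s, 3 had a positive and 9 a negative difference, and the summed P450s came to 99.7 ± 3.86 TPM in control and 97.7 ± 1.23 TPM in exposed samples (SD, n = 4 each).

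**Figure D3:**
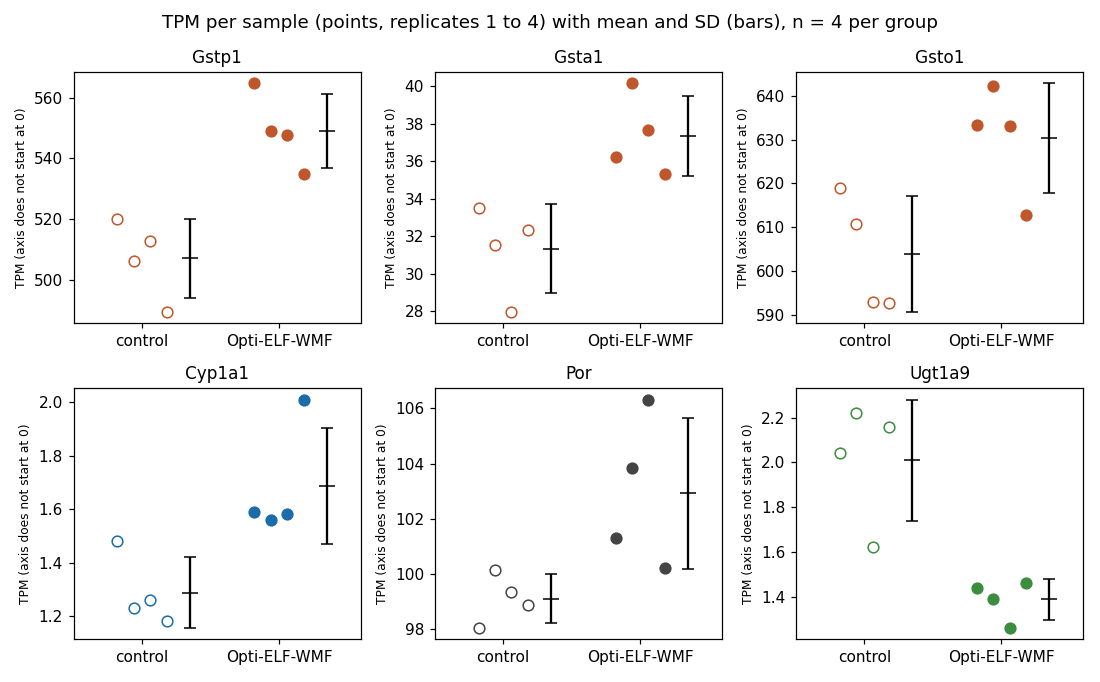
TPM per sample for Gstp1, Gsta1, Gsto1, Cyp1a1, Por and Ugt1a9, with replicates 1 to 4 as points and the mean and SD beside them; the axes do not start at 0. On the deposited scale shown, the groups are apart for each gene except Gsto1, barely so for Por. Ugt1a9 is the one that is lower in exposed samples.

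Por, on which the microsomal P450s depend for electrons, had the smallest residual SD of the members. It stood at 98.04, 100.15, 99.34 and 98.87 TPM in control and 101.29, 103.84, 106.32 and 100.23 TPM in exposed replicates 1 to 4. On the deposited scale the groups were apart only by the gap between 100.15 and 100.23 TPM. After median-of-ratios or upper-quartile scaling they overlapped, with control replicate 2 above exposed replicate 4. The log2 fold change of 0.05 ± 0.026 (SE) had an unadjusted p of 0.0697 by limma and was 0.02 under each of the 3 other scalings. Ephx1 stood at 188.43, 199.82, 186.96 and 180.15 TPM in control and 190.88, 183.10, 180.24 and 173.38 TPM in exposed replicates 1 to 4. These groups overlapped, with a log2 fold change of -0.05 ± 0.038 (SE) and an unadjusted p of 0.194 by limma, which was 0.0469 without the mitochondrial genes.

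Ugt1a9, a UGT that acts on phenols, was the only member lower at an unadjusted p under 0.05 in the main fit. Its TPM was 2.04, 2.22, 1.62 and 2.16 in control replicates 1 to 4 and 1.44, 1.39, 1.26 and 1.46 in exposed replicates 1 to 4, without overlap. The means were 2.01 ± 0.271 and 1.39 ± 0.0900 TPM (SD, n = 4 each), lower by 31.0% of the control mean. The log2 fold change was -0.33 ± 0.094 (SE), with an unadjusted p of 0.00602 and an adjusted p of 0.157 by limma. The 3 other scalings gave -0.35, -0.36 and -0.35. Ugt1a9 shares its last exons with the other Ugt1a genes, and its level was a small part of theirs.

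The more abundant UGT1A forms had small positive differences. Ugt1a6a, a phenol UGT, stood at 70.32, 67.53, 67.78 and 71.90 TPM in control and 70.62, 71.16, 73.01 and 73.63 TPM in exposed replicates 1 to 4, and Ugt1a7c had means of 10.7 ± 0.760 and 12.4 ± 1.81 TPM (SD, n = 4 each). Both overlapped, with unadjusted p-values of 0.102 and 0.0784 by limma and positive differences of 0.06 and 0.19. All 9 Ugt1a genes summed, 5 of them below the limit, had a log2 fold change of 0.06 ± 0.029 (SE). Ugt1a6b had means of 36.0 ± 2.26 and 37.3 ± 2.79 TPM (SD, n = 4 each). The family 2 genes Ugt2b34 and Ugt2b36, of the enzymes that glucuronidate steroids, had log2 fold changes of -0.06 ± 0.0998 (SE) and -0.24 ± 0.151 (SE), and both overlapped.

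All 5 sulfotransferases had a negative difference, and on the deposited scale none passed at an unadjusted p under 0.05. Sult1d1, which sulfates catecholamines, stood at 13.16, 12.29, 16.30 and 15.54 TPM in control and 12.76, 11.03, 13.59 and 12.20 TPM in exposed replicates 1 to 4. The groups overlapped, with a log2 fold change of -0.19 ± 0.092 (SE) and an unadjusted p of 0.0691 by limma. Under the 3 other scalings it was -0.22 each time, with unadjusted p-values of 0.0464, 0.048 and 0.0418 by limma. Sult1a1, the phenol sulfotransferase, had means of 27.9 ± 1.88 and 26.1 ± 1.35 TPM (SD, n = 4 each) and an unadjusted p of 0.131 by limma, which was 0.0425 with upper-quartile scaling. Sult1c2 had means of 22.9 ± 1.18 and 22.4 ± 1.68 TPM and Sult2b1, which sulfates cholesterol, of 8.08 ± 0.833 and 7.66 ± 0.856 TPM (SD, n = 4 each). The summed SULTs came to 74.8 ± 3.62 TPM in control and 70.0 ± 3.99 TPM in exposed samples (SD, n = 4 each), which overlapped.

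**Figure D4:**
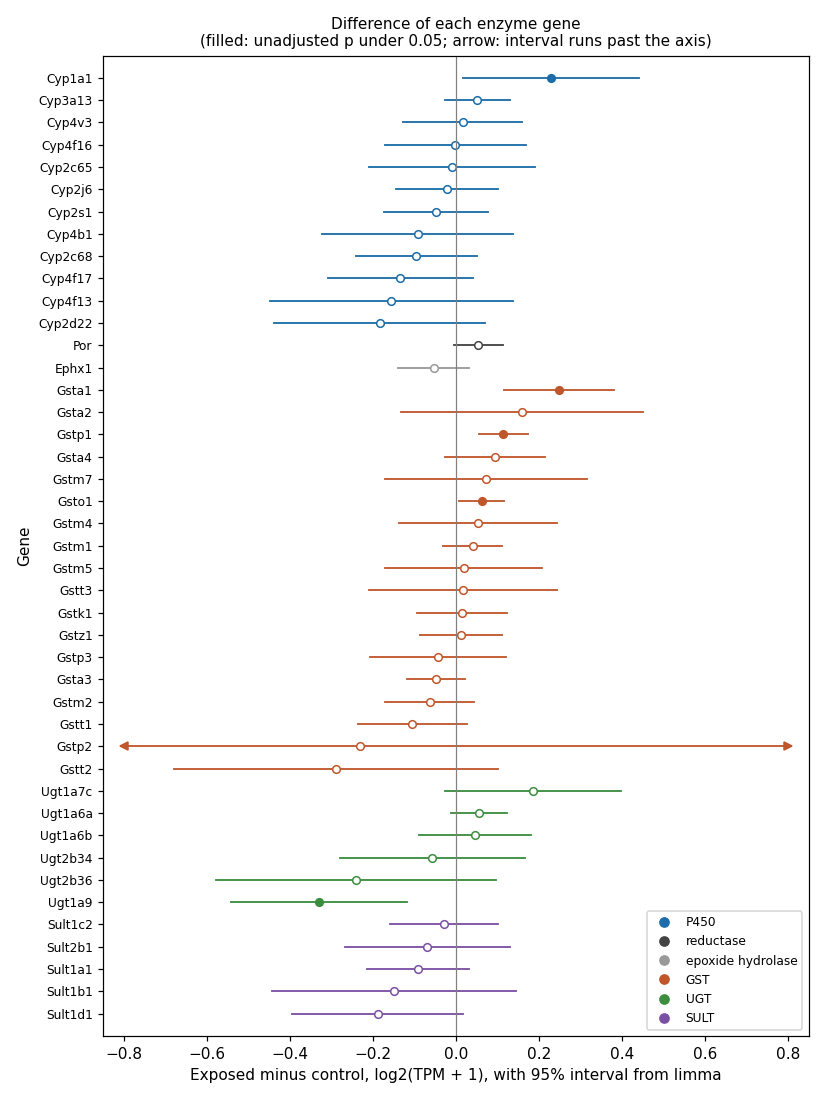
Difference between exposed and control samples in log2(TPM + 1) for each of the 43 genes with its 95% interval from limma, ordered within each class; filled points have an unadjusted p-value under 0.05 and arrows mark an interval that runs past the axis. For 39 genes the interval lies within 0.5 to either side of 0, and the interval of Gstp2 is the widest.

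Across the 43 members 19 differences were positive and 24 negative, or 55.8% negative against 36.3% of all 12122 genes, with a median of -0.02 against 0.03. Under each of the 3 other scalings 14 were positive and 29 negative, while the median of all genes was close to 0. The 95% interval of 39 members lay between -0.5 and 0.5 on the log2 scale. The exceptions were Gstp2, Gstt2, Ugt2b36 and Ugt1a9. The summed TPM of all members was 2368 ± 25.9 in control and 2425 ± 45.5 in exposed samples (SD, n = 4 each), with ranges of 2342 to 2404 and 2359 to 2463 that overlapped. The gap was 57.4 TPM, and Gsto1, Gstp1 and Gsta3 together differed by 56.5 TPM. Under the 3 other scalings the gap was 8.465, 8.442 and 1.239 TPM. The median residual SD of the members was 0.0967 against 0.0777 over all genes.

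The pathway around these enzymes was followed in 89 genes that encode their regulators, electron donors, co-substrate makers, other oxidising and conjugating enzymes and export pumps, of which 69 were tested. None had an adjusted p under 0.05 by limma. At an unadjusted p under 0.05, 6 were higher and 2 lower in exposed samples, shares no higher than the 12.0% and 3.65% of all genes. Akr1a1, an aldehyde reductase, stood at 511.22, 497.07, 497.63 and 499.01 TPM in control and 537.41, 546.38, 524.06 and 530.17 TPM in exposed replicates 1 to 4. On the deposited scale its groups did not overlap. After median-of-ratios scaling control replicate 1 and exposed replicate 3 were about level, with the control sample slightly higher. The log2 fold change of Akr1a1 was 0.09 ± 0.022 (SE), with an adjusted p of 0.126 by limma. Ugdh, which makes the UDP-glucuronic acid that UGTs use, had means of 148 ± 1.52 and 156 ± 2.22 TPM (SD, n = 4 each), also without overlap, with an unadjusted p of 0.00799 by limma. Adh5, the glutathione-dependent formaldehyde dehydrogenase, had means of 142 ± 3.71 and 150 ± 3.46 TPM (SD, n = 4 each), which overlapped.

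Among the regulators, Rxrb, one of the common partners of the nuclear receptors that drive P450 genes, had the smallest p-value. It stood at 28.48, 28.31, 28.90 and 28.39 TPM in control and 26.90, 26.66, 26.53 and 26.95 TPM in exposed replicates 1 to 4, without overlap, with a log2 fold change of -0.09 ± 0.030 (SE) and an unadjusted p of 0.0138 by limma. Nr1h4, the bile acid receptor, had means of 161 ± 3.30 and 168 ± 3.84 TPM (SD, n = 4 each), which overlapped. Nfe2l2, the regulator of the antioxidant response that many GST genes follow, had means of 135 ± 1.14 and 139 ± 3.19 TPM (SD, n = 4 each), with an unadjusted p of 0.187 by limma. The xenobiotic receptors Nr1i2 and Nr1i3, the classical activators of Cyp3a and Cyp2b genes, averaged 0.738 and 0.0713 TPM and were below the limit of the test. Cyp27a1, a mitochondrial sterol hydroxylase of bile acid synthesis, had means of 12.4 ± 1.16 and 10.7 ± 0.450 TPM (SD, n = 4 each), with an unadjusted p of 0.0183 by limma. None of the electron donors, conjugating enzymes or export pumps of the list had an unadjusted p under 0.05. The lowest belonged to the export pump Abcg2, with means of 79.0 ± 2.54 and 83.0 ± 1.90 TPM (SD, n = 4 each) and an unadjusted p of 0.0523 by limma. Alas1, the first enzyme of the synthesis of the haem that P450s carry, had means of 71.9 ± 1.79 and 71.3 ± 3.43 TPM (SD, n = 4 each).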

How the data were processed

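The authors deposited 1 table per sample with a TPM value for each of 55401 genes, from poly(A) RNA sequenced in 150-base read pairs. The submitters' processing notes name Trimmomatic 0.39, STAR 2.7.4a, RSEM 1.3.3 and the mm10 build, and the annotation is not given in the sources used here. RSEM shares reads that match several genes between them, which bears on near-identical members. TPM keeps no depth, so no counting error or detection floor can be given. Members were found by symbol and mean TPM. The 12122 genes that reached 1 TPM in 4 or more samples were fitted with limma 3.58.1 (lmFit, eBayes with a trend) in R 4.3.3 on log2(TPM + 1), with Benjamini-Hochberg adjustment over all of them, 4 against 4 samples and no covariate, and the script was tested on simulated data. The design had been written for TPM. Alternatives were 3 scalings, 2 pseudocounts, 3 filters, the replicate block, eBayes settings, leaving out each sample, and paralogue sums.

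Text genes were, by rule, Por, Ephx1, the 4 most abundant of each class, the 5 smallest p-values in each direction, the 3 largest within-group SDs, the 2 members to either side of the limit, and, from the pathway list, the 2 smallest p-values in each direction of each group and 5 regulators. Pathway genes that this rule covers but the text leaves out had no unadjusted p-value under 0.05 by limma. Other genes named served as background, near copies or markers and were chosen with their values seen. The members, lists and motifs were chosen with earlier results of these data known. Windows, coding sequences and positions were taken from GENCODE M21 (GRCm38), in which 55141 of the identifiers were found, and promoters from RefSeq, which held 38 of the 43 members.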

Additional observations from a re-analysis of the deposited data

Results flagged for a closer look

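In 7 of 122 groups of 4 samples, for the genes and class sums described, the highest or lowest sample lay farther from the others than Dixon's 95% limit for 4 values, where chance alone would give about 6.1. Cyp1a1 stood at 2.01 TPM in exposed replicate 4, against 1.56 to 1.59 TPM in the other 3. Gstt2 stood at 4.33 TPM in control replicate 3, against 5.59 to 5.84 TPM. The summed UGTs came to 136.47 TPM in exposed replicate 3, against 128.09 to 128.26 TPM, and the summed SULTs to 69.39 TPM in control replicate 2, against 76.43 to 76.95 TPM. Among pathway genes, Akr1a1 stood at 511.22 TPM in control replicate 1 (others 497.07 to 499.01 TPM), the P450 Cyp20a1 at 42.25 TPM in exposed replicate 1 (others 46.85 to 47.33 TPM) and the export pump Abcc5 at 53.07 TPM in control replicate 1 (others 59.17 to 59.64 TPM).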

How the results depend on the processing

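No member passed an adjusted p-value of 0.05 under any alternative, and neither did any of the 797 single-gene values recomputed, of which 22 changed sign. Gstp1, Gsta1 and Ugt1a9 kept their direction and an unadjusted p-value under 0.05 in every refit that changed the scaling, pseudocount, filter, variance setting or block, or left out a sample. Members at an unadjusted p-value under 0.05 went from 4 higher and 1 lower to 3 and 4 with median-of-ratios scaling, 2 and 4 without the mitochondrial genes, and 2 and 5 with upper-quartile scaling. Over all genes the counts went from 1451 higher and 443 lower to 673 and 755, 693 and 675, and 588 and 801, in the same order. The members' median log2 fold change went from -0.02212 to -0.04918, -0.04988 and -0.05321 and their summed difference from 57.35 to 8.465, 8.442 and 1.239 TPM, in the same order, while the median of all genes fell from 0.03 to about 0. Members whose groups did not overlap were 2 higher and 2 lower with upper-quartile scaling and 2 lower with median-of-ratios scaling. The share of all genes without overlap was not counted under these scalings. Pathway genes at the unadjusted threshold went from 8 to 4 without the mitochondrial genes and 5 with upper-quartile scaling. Without the variance trend 2 members were lower at that threshold, beside 499 of all 12122 genes. Among the 30 members that share no window with another gene, a setting chosen after seeing the data, 2 were higher and 0 lower by limma, since Gstp1, Gsta1 and Ugt1a9 share windows. The Gstt genes summed gave -0.1079, while Gstt3, the most abundant of them, had 0.02 by itself.

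Over all genes fitted, same-numbered samples did not deviate together (correlations from -0.0419 to 0.0258). Such correlations cannot exclude a pairing, and the labels give a number without saying whether it stands for one. With the replicate number as a block, 3 members were lower (Ugt1a9, Sult1d1 and Gstt2), Cyp1a1 had an unadjusted p of 0.0758 by limma, and 5 pathway genes passed the unadjusted threshold. Over all 12122 genes 1430 were then higher and 459 lower at that threshold. No control sample correlated best with the exposed sample of its own number.

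With 1 sample left out, 2 to 5 members were higher at the unadjusted threshold (2 without control replicate 3 or 4, 5 without exposed replicate 4) and 1 to 4 lower (4 without control replicate 2, 3 without exposed replicate 2, 2 without exposed replicate 3 or 4). Over all 12122 genes the same refits gave 1066 to 1625 higher and 330 to 513 lower. Groups did not overlap for 4 to 7 members higher and 1 to 3 lower, both highest without exposed replicate 4. Fewer samples separate more easily for any gene, and the share over all genes was not counted with a sample left out. These counts therefore cannot be set beside the 8.01% and 1.86% of all genes with 8 samples. The pathway count was 5 to 12, lowest without control replicate 2 and highest without exposed replicate 1. Over all genes these 2 refits gave 1164 higher and 375 lower, and 1625 higher and 338 lower. The members' median was -0.02622 to 0.002132, turning without control replicate 3, and their summed difference 44.77 to 79.33 TPM. Differences near 0 changed sign with a sample left out: Cyp4f16 ranged from -0.0486 to 0.05685, Cyp2j6 from -0.0524 to 0.01991, Ugt2b34 from -0.1134 to 0.01711, Sult1c2 from -0.06215 to 0.002362, Gstp2 from -0.7257 to 0.4218, Cyp2c65 from -0.04849 to 0.01749, Alas1 from -0.03448 to 0.01276, Cyb5a from -0.01984 to 0.01328 and Mgst1 from -0.04615 to 0.01082. The causes were not tested. No depth is known, so what depth limits could not be said.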
